A study of Mus musculus with 30 samples.

Results

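The barcodes described here carried transcripts of monocyte marker genes and were sought in 8 organs of mice with and without collagen-induced arthritis (CIA). They were chosen by measured values: a barcode entered when F13a1, Ms4a6c, Ccr2, Ly6c2 and Csf1r together made up at least 0.1% of its total and S100a8 with S100a9 made up less than 5%. This rule took 605 of 8282 barcodes, or 7.30%. Male DBA1/J mice were used, and the Seq-Well method, which pairs single cells with barcoded beads in small wells, gave the libraries. Arthritis scored 0 in 4 healthy mice, named H3, H4, H6 and H7. For CIA, 100 µg of bovine collagen II was injected in complete Freund's adjuvant, with a booster on day 20 in incomplete adjuvant, and the scores were 8 in S1 and S2, 3 to 4 in S6 and 3 in S7. By the study's methods the control mice received phosphate-buffered saline, blood was reduced to mononuclear cells on a density gradient with lysis of red cells, the whole knee joint and the draining lymph nodes were taken, the organ samples were frozen, and joint, lung, muscle and skin were minced and digested with enzymes after thawing. Adjuvant was thus given to CIA mice alone, and an effect of adjuvant cannot be told apart from an effect of arthritis. The library titles ended in CIA or 2CIA, a suffix whose meaning the labels do not give.

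Monocytes leave the bone marrow, circulate in blood and enter tissues, where they can become macrophages or dendritic cells. In the mouse, classical monocytes carry the chemokine receptor Ccr2, which draws them toward Ccl2 at sites of inflammation, and the surface protein Ly6c2, while non-classical monocytes patrol vessels with little of either. Csf1r, the receptor for colony-stimulating factor 1, is needed by the whole lineage, F13a1 is a transglutaminase of the clotting system made by monocytes and macrophages, and Ms4a6c is a membrane protein of myeloid cells. S100a8 and S100a9, which form calprotectin, are most abundant in neutrophils and are also made by classical monocytes.

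Every value below is in units, the deposited signal, in which each barcode had been added to its nearest neighbours in the same library. Levels are sums over the chosen barcodes of a library, scaled to UPM, units per 1000000 units. Because of the smoothing many barcodes shared all their values, and the 605 barcodes held 304 distinct profiles. The barcodes of a library are therefore not replicates, and the mouse was the unit of every comparison. Smoothing also adds the transcripts of neighbours, so that genes of different cell types in one profile need not come from one cell.

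The lowest marker share of a chosen barcode was 0.1002%, 38 chosen barcodes lay under 0.11%, and 68 barcodes just outside the limit lay at 0.09% or above, up to 0.0994%. The median share was 0.205% in the chosen barcodes, with a highest value of 0.694%, and 0.0185% over all barcodes, of which 25.8% had none of the 5 genes. The calprotectin limit removed a further 122 barcodes. The highest S100a8 and S100a9 share that was kept was 4.83%, and the lowest that was removed was 5.16%. Ly6c2 supplied 36.9% of the marker units of the chosen barcodes, Ms4a6c 26.1%, F13a1 18.7%, Ccr2 17.1% and Csf1r 1.21%. All 5 genes were above 0 in 105 chosen barcodes, 4 in 297, 3 in 152, 2 in 44 and 1 in 7. Ly6c2 alone would have chosen 247 of them, and Csf1r alone none.

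The chosen barcodes were spread unevenly over the libraries. Of the 30 libraries, 15 held at least 1 and 11 held 10 or more, with 579 barcodes in those 11. In CIA, 505 of 3733 barcodes were chosen (13.5%), against 100 of 4549 in healthy mice (2.20%). The shares reached 69.2% in the lung of S1, 58.6% and 11.2% in the 2 joint libraries of S1, 48.4% and 45.1% in the blood of S6 and S2, and 29.6%, 15.8% and 12.5% in the muscle of S1, the spleen of S1 and 1 of the 2 lymph node libraries of S7. The healthy libraries with 10 or more were the muscle of H6 with 11.9%, the joint of H3 with 10.9% and the blood of H7 with 2.03%. The blood of H3, H4 and H6, the lung and spleen of H6 and both skin libraries held 0 (0 of 27, of 95 and 357, of 306, of 70, of 167, and of 158 and 150 barcodes). The second lymph node library of S7 also held 0, of 273 barcodes, where the first held 46 of 369, and the lymph node of S2 held 0 of 272. In the blood of S7, of a CIA mouse, 7 of 97 barcodes were chosen (7.22%). In thymus, healthy H6 had 9 (1.32%) and S1, with CIA, 0 of 439. One mouse, S1, gave 344 of the 605 barcodes. Among libraries ending in 2CIA 11.5% of barcodes were chosen and among those ending in CIA 2.92%; 12 of the 17 libraries ending in 2CIA were of CIA mice and 11 of the 13 ending in CIA of healthy mice, so the part of the suffix in these shares was not tested. Several shares hung on 1 gene or limit. The share of the muscle of S1 was 0 with F13a1 or Ccr2 left out of the sum, and that of the lymph node of S7 was 0 with Ly6c2 left out. At a limit of 0.05% the joint of H3 reached 42.5%, above the 14.0% of the 2CIA joint library of S1 and below the 58.6% of its CIA library, and without the calprotectin limit the spleen of H6 had 3.59%. Since these shares rest on the values that chose the barcodes, they carry no test.

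**Figure D1:**
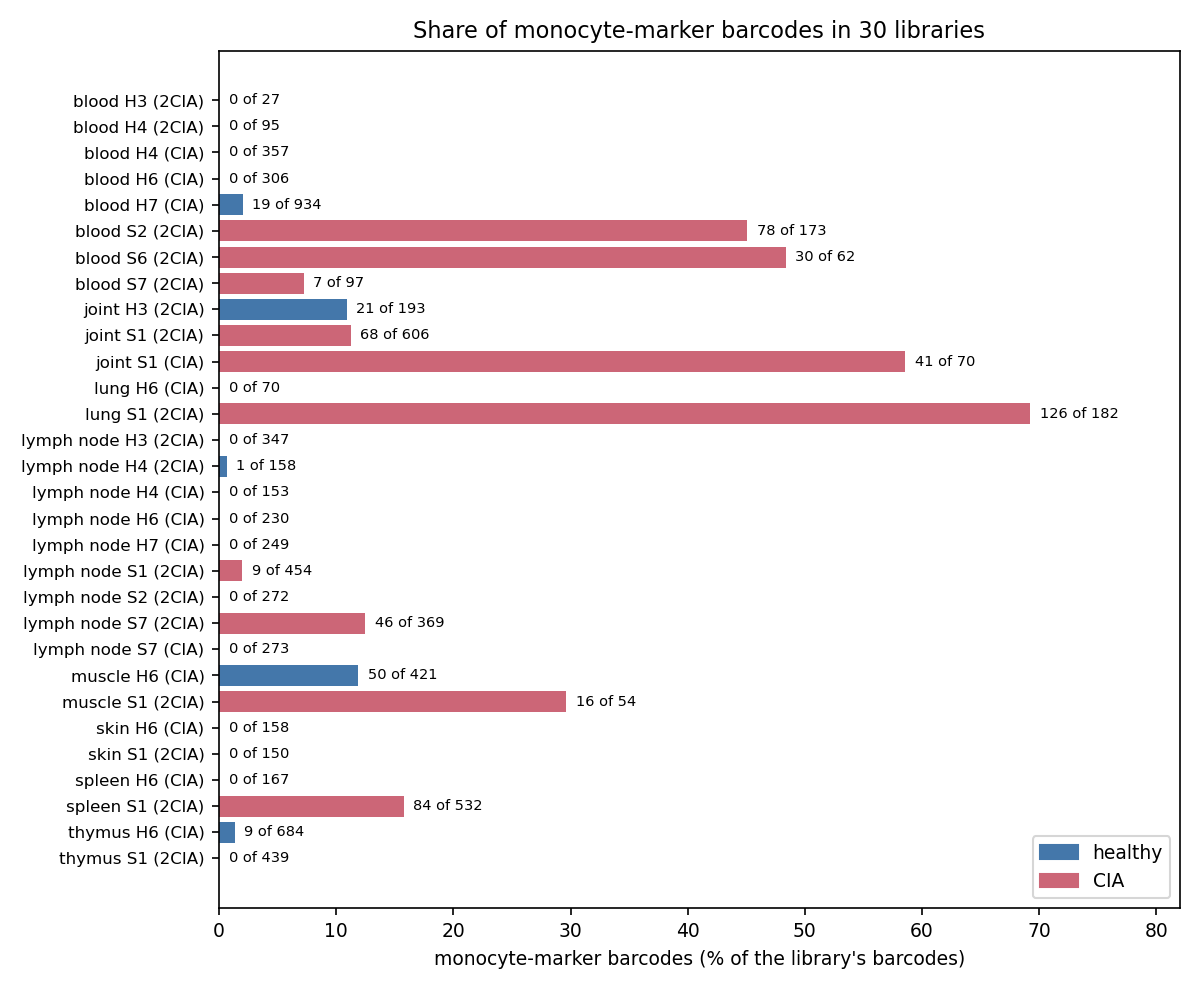
Share of monocyte-marker barcodes in each of the 30 libraries, as a percentage of the library's barcodes (x axis), with the numbers beside each bar. Bars are coloured by disease state, and the longest bars are CIA libraries of lung, joint and blood, while 15 libraries have no bar.

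The 5 genes were present in different proportions from organ to organ. In the blood of S2 they stood at 1120.4 UPM for F13a1, 1180 for Ms4a6c, 1269 for Ccr2, 1060 for Ly6c2 and 26.6 for Csf1r, and in the blood of S6 at 529, 1407, 1354, 533 and 168. Ccr2 was higher in both than in any other of the 11 libraries. As these genes chose the barcodes, their levels are a description. The spleen of S1 had 466.4 UPM of F13a1, 890.3 of Ms4a6c, 465 of Ccr2 and 1229 of Ly6c2, and the lung of S1 had 416, 825, 224 and 814. In the joint F13a1 was at 286 UPM in H3 and at 551 and 361 in the libraries of S1, and Ly6c2 at 616, 1204 and 728. The muscle of H6 had 198.5 UPM of F13a1 and 687 of Ly6c2. Csf1r was listed at 0 in all 50 barcodes of the muscle of H6 and all 41 of the CIA joint library of S1, as it was in the blood of H7 and the lymph node of S7. In the blood of H7, F13a1 was at 55.7 UPM and above 0 in 6 of 19 barcodes, and Ly6c2 made up 56.0% of the marker units. In the lymph node of S7, F13a1 was listed at 0 in all 46 barcodes and Ly6c2 made up 75.7%. In the muscle of S1, Ly6c2 was listed at 0 in all 16 barcodes, with F13a1 at 396 UPM and Ccr2 at 487. S100a8 and S100a9 together stood between 1173 UPM, in the muscle of S1, and 14507, in a joint library of S1.

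**Figure D2:**
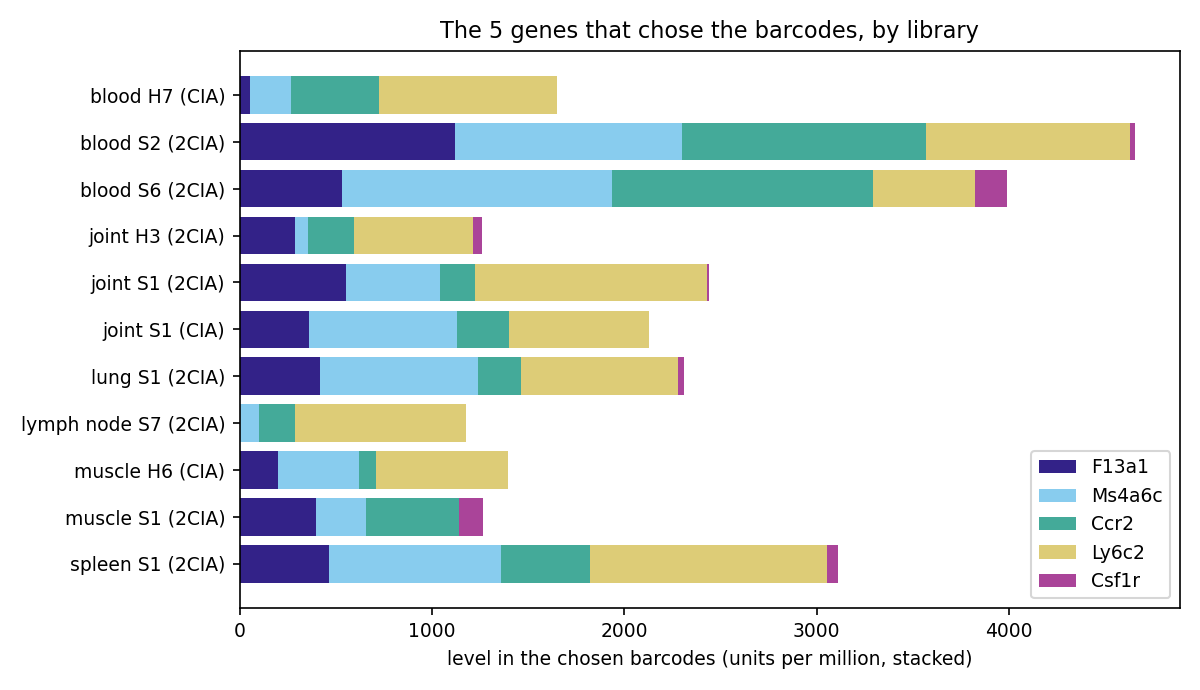
Level of the 5 choosing genes in the chosen barcodes of the 11 libraries with 10 or more of them, stacked, in UPM (x axis). F13a1 is missing from the bar of lymph node S7 and Ly6c2 from that of muscle S1, and blood S2 and S6 have the longest bars.

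Genes that the rule did not use were then read as a check of the label. A list of classical monocyte genes (14 of 16 were in the table), led by Lyz2, which encodes lysozyme, summed to 25178 and 22664 UPM in the blood of S2 and S6, 23767 in the lung of S1, 20857 in the muscle of S1, 17232 and 12775 in the joint of S1, 12513 in the spleen of S1, 11386 in the joint of H3 and 10980 in the muscle of H6. It was lowest in the blood of H7, at 7012, and the lymph node of S7, at 2232. Lyz2 itself ran from 277 UPM in the lymph node of S7 to 19677 in the muscle of S1. In the lung the barcodes that were not chosen held almost as much of the list, 22077 UPM against 23767, and more Lyz2, 17315 against 14149. The label did not hold for the lymph node of S7, whose barcodes are described by their genes below, and other cell types' genes were high in the blood of H7 and the muscle of S1. Genes of other cell types were found in further libraries too, and some of them were high. Erythroid genes summed to 227427 UPM in the blood of S2. Fibroblast genes summed to 4264 UPM in the joint of H3 and NK cell genes to 2655 in the blood of S6. Others were at lower level. At least 1 of 3 C1q genes was above 0 in 57 of 84 spleen barcodes, at 57.9 UPM in all, and at least 1 of 4 T cell receptor genes in 69 of these, at 285 UPM, in 35 of 50 barcodes of the muscle of H6, at 350.2 UPM, and in 29 of 78 of the blood of S2, at 93.2 UPM. A barcode sequence of the chosen set was found in more than 1 library in 3 cases.

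**Figure D3:**
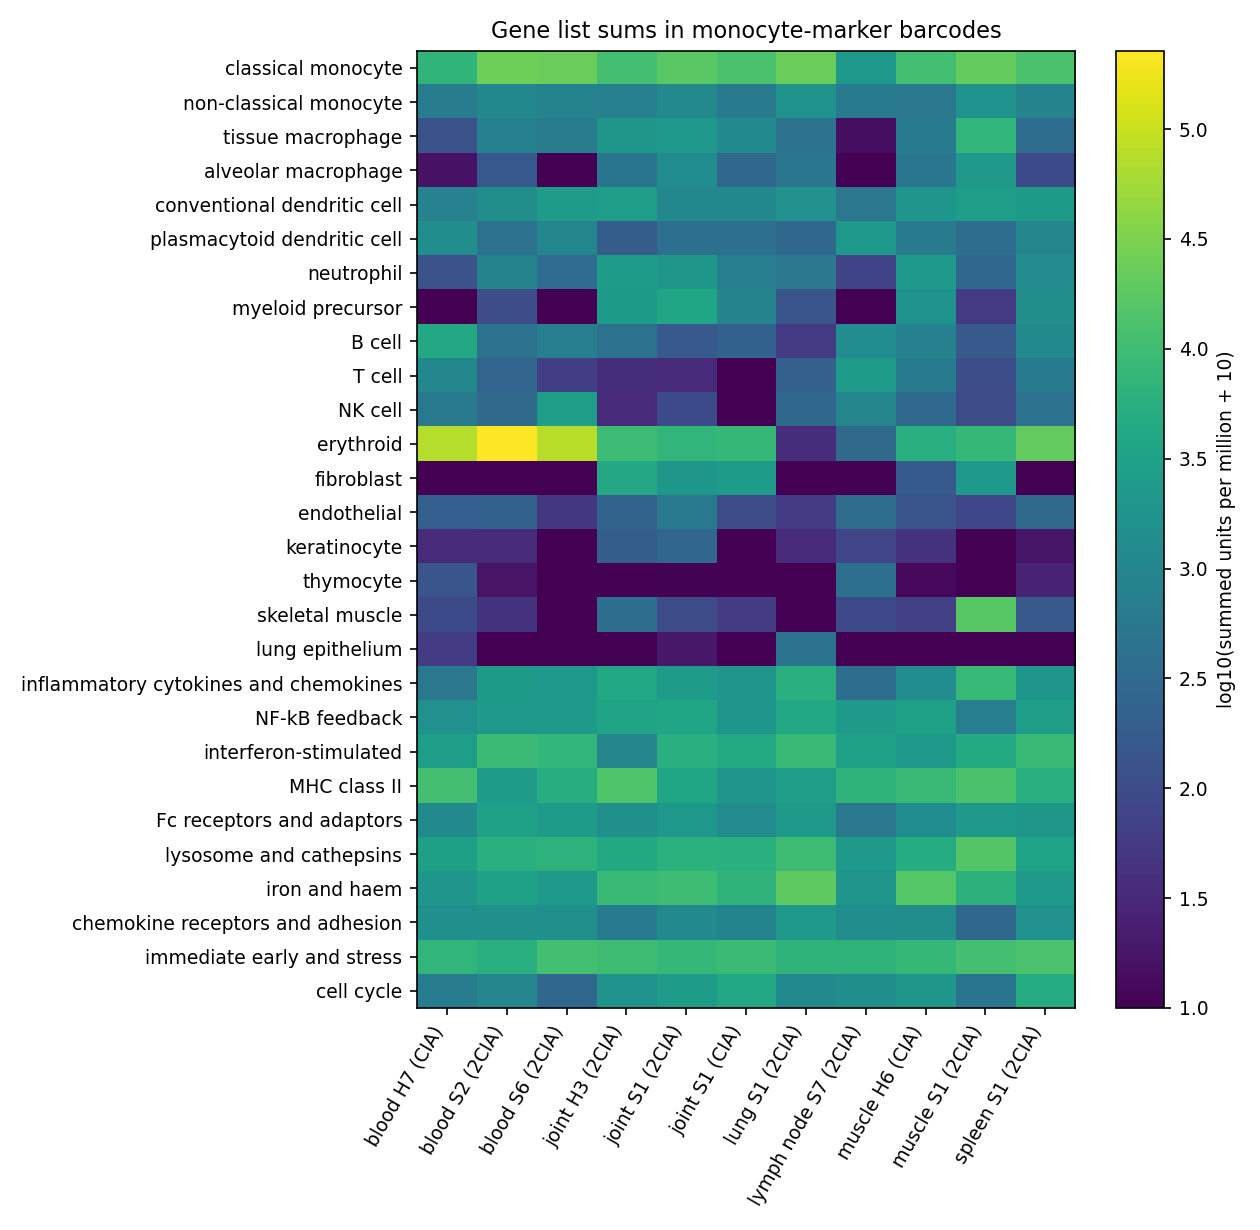
Summed level of 28 gene lists (rows) in the chosen barcodes of 11 libraries (columns), as log10 of UPM plus 10. The classical monocyte row is high in every column but lymph node S7, the skeletal muscle row is high in muscle S1 alone, and the erythroid row is highest in the blood columns.

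The 78 blood barcodes of S2 and the 30 of S6 carried classical monocyte genes together with interferon-stimulated genes. Lyz2 stood at 17218 and 15103 UPM and Plac8, a small protein of myeloid and plasmacytoid cells, at 3167 and 3336. The genes that stood out most from the other blood barcodes were Gm7676, Ifi202b, Ccl2, Ifi211, Clec4a3, Ifi207, Lyz1 and S100a4, by 76.0- to 19.5-fold over the blood libraries of H7, S2 and S6 together. Most of the other blood barcodes were of H7 and most chosen ones of S2 and S6, so these folds mix disease state with the choice. Within S2 alone Ccl2 was at 534 UPM against 44.8 in the other barcodes, and S100a4 at 1016 against 123. Ifi202b, Ifi207 and Ifi211 belong to the interferon-inducible p200 family, whose members are similar in sequence, so reads may be split between them. Ifi202b stood at 878 and 1973 UPM in S2 and S6 against 378 in H7, and Ccl2, the ligand of Ccr2, at 295 in S6 where it was listed at 0 in H7. C1qa, C1qb and C1qc, subunits of complement C1q that mark tissue macrophages, were above 0 in none of the 19, 78 and 30 blood barcodes. Haemoglobin and other erythroid transcripts summed to 227427 UPM in S2, 76778 in S6 and 74237 in H7; in the other blood barcodes they summed to 500345, 61163 and 191611, and their part in the blood values was not tested. In the blood of S6, NK cell genes were also high, with Ccl5 at 1424 UPM and Gzma at 730.3. The other barcodes of that library held 1482 UPM of Ccl5 and 151 of Gzma, and the whole NK cell list stood at 2655 in the chosen barcodes against 2283.

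The 19 blood barcodes of H7 were mixed. B cell genes summed to 4237 UPM, against 421 and 722 in S2 and S6, and were higher in the barcodes that were not chosen, at 5214, 796 and 4789. In the chosen barcodes of H7 Ighm was at 1053 UPM and Ms4a1, which encodes CD20, at 960.1. At least 1 of the T cell receptor genes Cd3d, Cd3e, Cd3g and Trac was above 0 in 16 of 19 barcodes. Lyz2 was at 3463 UPM, below both CIA mice.

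The joint barcodes joined monocyte genes with those of bone marrow precursors and of macrophages. Mpo, Elane, Prtn3 and Ctsg, the enzymes that early granulocyte and monocyte precursors store in their granules, and Ms4a3, a marker of the granulocyte and monocyte progenitor, were 5 of the 8 leading genes of the joint, in which the libraries of H3 and S1 were pooled. Ctsg was 24.9-fold over the other joint barcodes, Mpo 12.03-fold, Prtn3 11.8-fold, Ms4a3 8.64-fold and Elane 8.25-fold, and the cathepsin Ctss, of macrophages and other antigen-presenting cells, was 9.15-fold. Elane stood at 1415 UPM in H3 and at 940.1 and 425 in the libraries of S1. Mpo reached 543 UPM in H3 and 788 in the 2CIA library of S1, while the CIA library of S1 had it at 0. One or more of these 5 precursor genes was above 0 in 10 of 21 barcodes of H3 and in 50 of 68 and 41 of 41 of S1, and the C1q genes in 20 of 21, 44 of 68 and 22 of 41. Both groups of genes were found in 9, 26 and 22 of these barcodes and neither in 0. The precursor list summed to 2386 UPM in H3 and to 3569 and 876 in S1, so the 2 libraries of a single mouse lay further apart than H3 from either. Trem2, a lipid receptor of macrophages, was 8.201-fold over the other joint barcodes and Pf4, a platelet chemokine also made by macrophages, 8.08-fold. Fibroblast genes summed to 4264 UPM in H3 and to 2012 and 2588 in S1, where the other joint barcodes held 21385, 37463 and 31816.

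The 126 lung barcodes, all of S1, had the highest levels of several inflammatory genes. The whole list of cytokines and chemokines was higher in the muscle of S1, at 8178 UPM against 5870.0 in lung. Cxcl2, a neutrophil-attracting chemokine, stood at 2815 UPM, Clec4e, a receptor for mycobacterial and damage ligands, at 1191, and the endotoxin co-receptor Cd14 at 1469.9. Il1rn, the interleukin-1 receptor antagonist, was at 313 UPM and Cxcl3 at 408. In the lung barcodes that were not chosen Cxcl2 was at 2304 UPM, Clec4e at 335, Cd14 at 602, Il1rn at 47.8 and Cxcl3 at 135, and the whole list of cytokines and chemokines was higher there, at 6745 UPM against 5870.0. Haem and iron genes were high as well, with the ferritin heavy chain Fth1 at 13227 and the haem oxygenase Hmox1 at 2102 UPM. The genes that led over the other lung barcodes were Spcs2-ps and Rfk, at 229 and 224 UPM and listed at 0 in the others, and Dnajc3, Gm4987, Tnfrsf1b, Lpin2, Zc3hav1 and Bst2, at 30.9- to 21.6-fold. Surfactant and secretory genes of lung epithelium summed to 445 UPM, against 6846 in the other barcodes of that library. The lung of H6, with 70 barcodes, had none chosen, so the states could not be compared in lung.

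The 84 spleen barcodes, also all of S1, carried monocyte genes together with genes of division. Plac8 was at 4370.5 UPM, above every other library, and Ly6c2 at 1229. Ifi202b, Ifi207 and Ifi211 were 27.2-, 15.1- and 12.1-fold over the other spleen barcodes, Aif1, an actin-binding protein of monocytes and macrophages, 46.2-fold, and Tgfbi, an adhesion protein, 12.5-fold. Cell cycle genes summed to 4921 UPM, the highest of the 11 libraries, with Hmgb2 at 2859, the topoisomerase Top2a at 543 and Mki67 at 329; the other spleen barcodes had 3572. At least 1 of the 5 precursor genes was above 0 in 80 of 84 barcodes, with Prtn3 at 414 UPM and Mpo at 390.1. Jun stood at 2269 UPM, against 251 to 982 elsewhere. Erythroid genes summed to 20806 UPM and B cell genes to 1181, both below the other spleen barcodes, at 113236 and 4957.

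The muscle barcodes of the 2 mice carried different genes. In H6 at least 1 of these 5 precursor genes was above 0 in 49 of 50 barcodes and their sum was 1631 UPM, the C1q genes were listed at 0, and Fth1 and Hmox1 were high, at 12155 and 1771 UPM. In S1 the C1q genes were above 0 in 16 of 16 barcodes and summed to 2262 UPM, the 5 precursor genes were listed at 0, and Apoe, the lipid carrier made in quantity by macrophages, was at 3762 UPM, the cathepsin Ctss at 9161 and the chemokine Ccl6 at 3015. The barcodes of S1 also held 16707 UPM of skeletal muscle genes, with Mylpf at 5407 and Acta1 at 2924, against 548 in the other muscle barcodes of S1 and 55.8 in the chosen barcodes of H6. These genes led the muscle list, in which H6 and S1 were pooled, with Myl1 listed at 0 in the other muscle barcodes, Mylpf 52.4-fold and Tnnc2 41.0-fold over the other muscle barcodes, and next to them were Ccl8, a ligand of monocyte chemokine receptors, at 34.4-fold and Retnla, a secreted protein of alternatively activated macrophages, at 18.7-fold.

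The lymph node barcodes of S7 went against the label. Their leading genes were Siglech, a surface lectin of plasmacytoid dendritic cells, at 544 UPM and 18.5-fold over the other barcodes of that library, and Ccr9, a homing receptor shared by plasmacytoid cells and T cells, at 275 UPM and 17.0-fold. After them came Wfdc17, Tyrobp, Rnase6, Psap, Slpi and S100a6, at 12.2- to 4.47-fold. T cell genes summed to 2477 UPM, the highest of the 11 libraries, and to 2872 in the other barcodes of that library, while classical monocyte genes summed to 2232 against 1033 and S100a8 with S100a9 to 4882 against 411. At least 1 of Cd3d, Cd3e, Cd3g and Trac was above 0 in 46 of 46 barcodes and Siglech or Ccr9 in 13. Siglech or Ccr9 was also above 0 in 14 of 50 barcodes of the muscle of H6 and 27 of 84 of the spleen of S1, at lower sums (107 and 72.4 UPM against 819). Tissue macrophage genes summed to 4.44 UPM. Ly6c2 is also carried by plasmacytoid cells and by some T cells.

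Over the 11 libraries, the lists of functional genes differed in level from library to library. Tissue macrophage genes ran from 4.44 UPM in the lymph node to 7577 in the muscle of S1, with 1188 to 2077 in the joint and 111 to 819 in the blood. Iron and haem genes stood at 18877 UPM in the lung and 16334 in the muscle of H6, at 6374 to 9935 in the joint and the muscle of S1, and at 1877 to 3115 in blood, spleen and lymph node. Lysosomal genes were at 15694 UPM in the muscle of S1 and 9905 in the lung, and at 2168 to 6462 in the other 9. Fc receptor genes and their adaptors Fcer1g and Tyrobp, which carry antibody signals into myeloid cells, summed to 1158 to 3066 UPM in 10 libraries and to 555 in the lymph node. Neutrophil genes summed to 64.4 to 2433 UPM, where the other barcodes of the same libraries held 47.1 to 24608. The list of non-classical monocyte genes summed to 551 to 1690 UPM, but much of this came from genes that other cells share. Cebpb, a transcription factor of many cell types, stood at 1175 UPM in lung and 579 in the muscle of S1, and Eno3, the muscle enolase, at 792 in the muscle of S1. Cx3cr1, the receptor that marks these cells, was above 0 in 3 of the 11 libraries, at 19.6 to 24.8 UPM. Immediate early and stress genes, led by Junb, summed to 5797 to 13166 UPM.

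Disease state could be compared in blood, joint and muscle, where both states had 10 or more chosen barcodes. The summed level of interferon-stimulated genes was higher in the CIA libraries of all 3, although no gene of the list was called in the test of state. The list summed to 2614 UPM in the blood of H7 against 9477 and 7775 in S2 and S6, to 942 in the joint of H3 against 5375 and 4532 in S1, and to 2186 in the muscle of H6 against 4675 in S1. In the barcodes that were not chosen it was also higher in CIA, at 1642 UPM against 4350 and 2325 in blood, 2052 against 4500 and 3243 in joint and 1244 against 7486 in muscle, where the ratio was larger than in the chosen barcodes. Ifi27l2a, an interferon-induced gene, stood at 118 UPM in the blood of H7, 103 in the joint of H3 and 120.5 in the muscle of H6. In CIA it stood at 2909.8 and 2322 in blood, 1977 and 1118 in joint, 1241 in muscle, 3136 in lung, 2986 in spleen and 768 in lymph node. The lowest CIA library was thus above the highest healthy one, within the libraries ending in 2CIA (103 in H3 against 768 to 3136) and within those ending in CIA (118 and 120.5 against 1118). Ifitm3, which blocks the entry of viruses into cells, stood at 173, 219.7 and 263 UPM in healthy blood, joint and muscle and at 868 to 2172 in the CIA libraries except the lymph node, where it was at 107. Both genes also varied in the barcodes that were not chosen. There Ifi27l2a was at 281, 112 and 73.5 UPM in the healthy libraries and at 218 to 1353 in the CIA libraries.

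**Figure D4:**
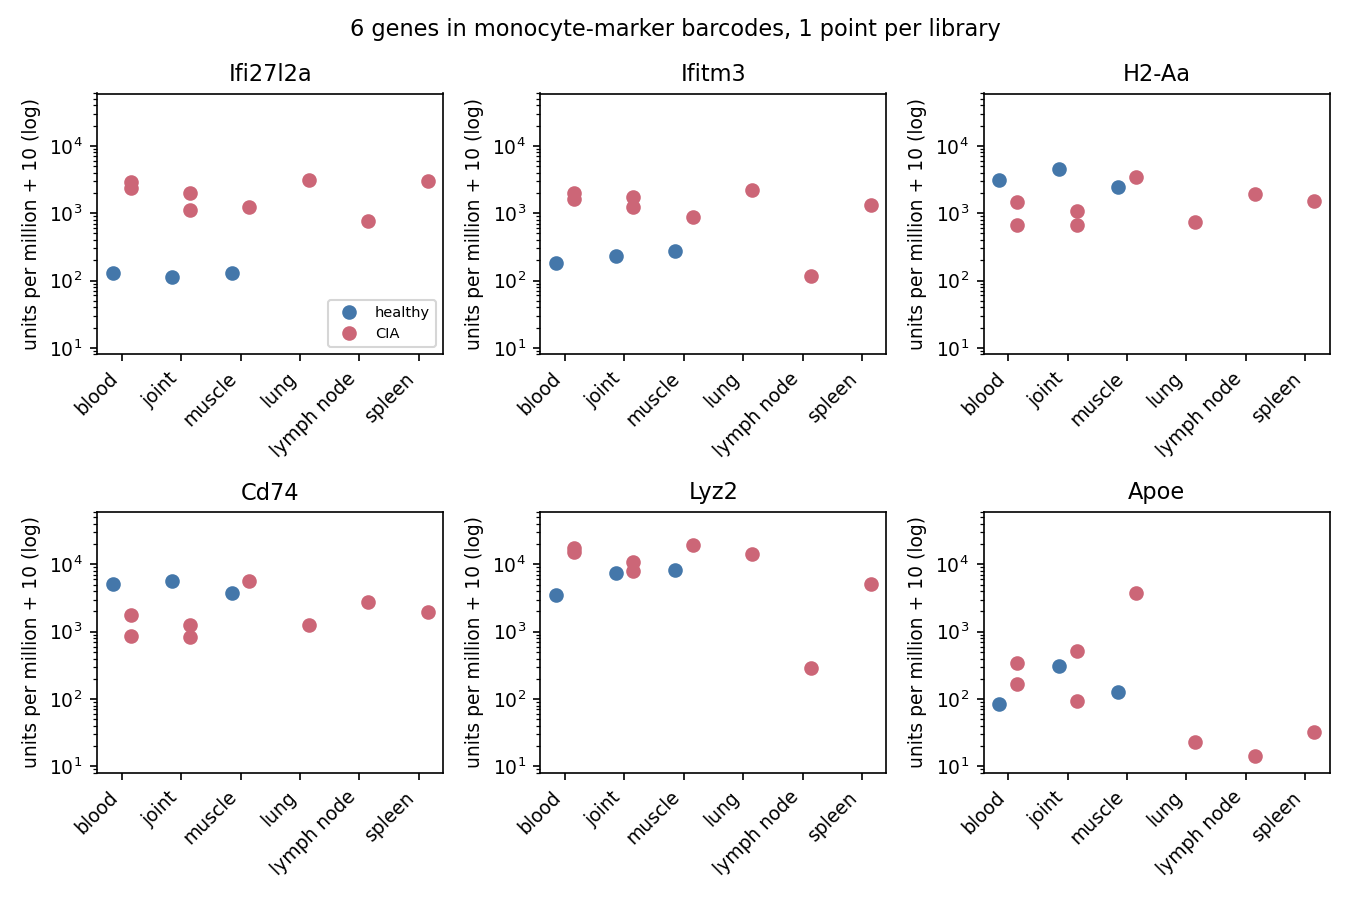
Level of 6 genes in the chosen barcodes, 1 point per library, by organ (x axis), as UPM plus 10 on a log axis. Healthy libraries (blue) of Ifi27l2a lie at 103 to 120.5 UPM, below all CIA libraries (red), while H2-Aa and Cd74 are lower in CIA blood and joint and higher in CIA muscle.

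Genes of MHC class II, which present antigen to T helper cells, went the other way in blood and joint. They summed to 11472 UPM in the blood of H7 against 2421 and 5186 in S2 and S6, and to 14498 in the joint of H3 against 3739 and 1834 in S1. In muscle they were higher in CIA, at 12793 UPM in S1 against 8698 in H6. Cd74, the invariant chain, stood at 5092, 5708 and 3779 UPM in healthy blood, joint and muscle, and in CIA at 846 and 1781, 1258 and 835, and 5597. In the barcodes that were not chosen the list stood at 11188 UPM in the blood of H7 against 3717 and 14884 in S2 and S6, at 2783 in the joint of H3 against 462 and 76.6 in S1, and, in the reverse order of the chosen barcodes, at 12183 in the muscle of H6 against 2742 in S1. In the blood of H7 the genes of B cells, which also carry MHC class II, were high, as given above, and the part of B cells in that value was not tested. In the joint of H3 the 21 barcodes were 10 distinct profiles, and with each counted once the list stood at 6094 UPM against 3899 in S1.

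One limma fit over the 10 mouse-and-organ sums, with organ and state as terms and the mouse as a random block, tested state over 5575 genes. The test called 0 of them, a background of 0%, with 64 at an unadjusted p under 0.05. The fit had 3 residual degrees of freedom, 3 healthy mice with 1 sum each, and 4 sums from the mouse S1. Ifi27l2a had the smallest p, with a log2 difference of CIA over healthy of 3.72 ± 0.91 (SE) and an adjusted p of 0.269, and was the only gene called when another scaling, no mouse block or distinct profiles were used. Next toward CIA came Ifi207 at 3.66 ± 1.22 and Mgst1, a glutathione transferase of membranes, at 3.34 ± 1.14, and toward healthy the immunoglobulin genes Igkc at -3.57 ± 1.02 and Ighm at -2.79 ± 1.07 and the small nuclear RNA Rn7sk at -3.55 ± 1.05. Each of these 5 had an adjusted p of 1.00. The median of all genes lay at -0.42 on this scale, and the median of the 21 interferon-stimulated genes tested was 1.34, with 16 above 0 and 0 called. MHC class II genes had a median of -1.12 over 9 genes, with 1 above 0, tissue macrophage genes 1.30 over 11 genes, with 11 above 0, and B cell genes -2.36 over 8, with 0 above 0. No gene of these lists was called. Genes were kept by their mean over all sums, most of them of CIA mice, so genes high in CIA passed more easily. The list medians and the numbers above 0 are partly set by this filter. In these scaled values, every CIA sum was above every healthy sum for 20 genes (0.359% of those tested) and below for 48 (0.861%); Ifi27l2a, Psmb9, Slfn5, Nfkbiz and Ms4a6d were among the 20, and H2-Aa, H2-Ab1 and Cd74 among the 48, although in UPM these last 3 overlapped between the states.

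In single organs the states are given as values, since a healthy sum rests on 1 mouse. In the joint, 5344 genes had 50 or more units in both mice together. Of these, 31.1% were at least 2-fold higher in S1 and 20.4% at least 2-fold lower, and among 13 interferon-stimulated genes 12 were higher and 0 lower, with a median log2 ratio of 4.11 against 0.18 for all genes. Of 9 MHC class II genes 1 was higher and 7 lower. In muscle, 23.7% of 2079 genes were at least 2-fold higher in S1 and 39.4% lower. Of 10 interferon-stimulated genes there 4 were higher and 2 lower. Of 8 skeletal muscle genes 8 were higher, of which 3 were above 0 in H6. Of 5 classical monocyte genes 1 was higher and 3 lower, with a median log2 ratio of -1.14, while the sum of that list was higher in S1, where Lyz2 supplied 19677 of 20857 UPM. In blood, 12.5% of 3544 genes were at least 2-fold higher in both S2 and S6 than in H7 and 9.93% lower in both. Of 23 interferon-stimulated genes 9 were higher and 1 lower, of 13 classical monocyte genes 5 higher and 1 lower, of 8 cytokine and chemokine genes 5 higher and 0 lower, and of 6 B cell genes 0 higher and 5 lower.

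**Figure D5:**
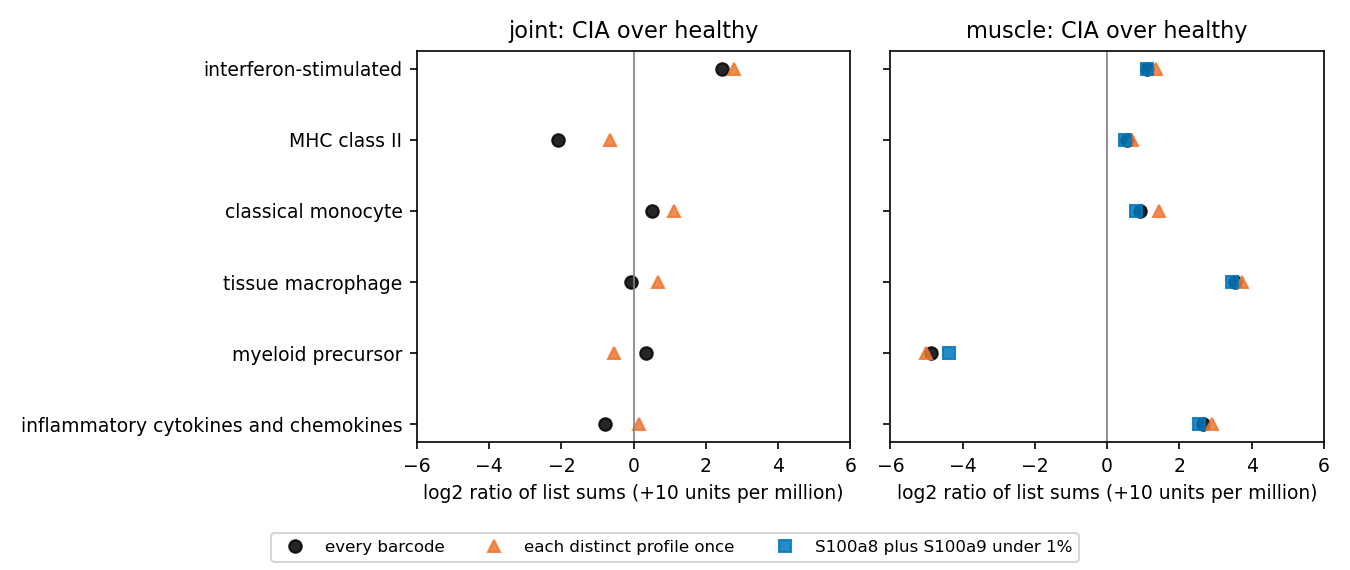
Log2 ratio of CIA over healthy for 6 gene list sums in the joint (S1 over H3) and the muscle (S1 over H6), with 10 UPM added, for every barcode, for each distinct profile once and, in muscle, for a stricter calprotectin limit. The interferon-stimulated points lie right of 0 in both panels and the tissue macrophage, myeloid precursor and cytokine points of the joint change side when profiles are counted once.

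The genes with the largest ratios in the joint and muscle were listed at 0 in 1 of the 2 mice. In the joint, Spp1, which encodes osteopontin, a matrix protein of bone and of activated macrophages, was listed at 0 in H3 and stood at 826 UPM in S1 (564 and 1877 in its 2 libraries). Ndufs6, Lst1, Frg1 and Ms4a7 followed, at 178 to 250.4 UPM in S1. Ccl17, a chemokine that attracts T cells, reached 899 UPM in the joint of H3 with 0 in both libraries of S1, followed by Atf7 at 712, Vwa1 at 199.7, Gm5937 at 179.7 and a row without a symbol. In muscle, Tnnc2, Myl1 and Tnnt3, which build the contractile apparatus, and the chemokines Ccl12 and Ccl8, at 1736 and 1690.5 UPM, were listed at 0 in H6. Hmox1 (1771 UPM), Emp1 (1106), Ngp (607), Hnrnpc (571) and Mpo (569) were listed at 0 in S1. The share of detected genes whose largest value was 1 differed between libraries. It was 12.5% in the joint library of H3 and 37.1% and 6.18% in those of S1, and 21.3% and 56.2% in the muscle libraries of H6 and S1. The part of this difference in values of 0 was not tested.

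Counted by list sums, the muscle of S1 had 3.54 more than that of H6 on the log2 scale in tissue macrophage genes, 2.65 in cytokines and chemokines and 1.09 in interferon-stimulated genes, and -4.88 in precursor genes. The joint of S1 differed from H3 by 2.45 in interferon-stimulated genes and -2.11 in MHC class II genes. For tissue macrophage genes, precursor genes and cytokines the joint values were -0.07, 0.34 and -0.78, and all 3 changed sign when each distinct profile was counted once.

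The cytokines Il1b and Tnf, the regulator Tgfb1 and Apoe were low or uneven. Il1b, the fever-inducing interleukin-1, stood at 86.7 UPM in the blood of H7 and at 256 and 254 in S2 and S6, at 33.3 in the joint of H3 and 11.6 and 0 in S1, at 138 in lung, 23.2 in spleen and 0 in the lymph node and in both muscle libraries. Tnf stood at 183 UPM in the muscle of S1, 101 in lung and 81.1 in spleen, and at 0 to 71.0 in the other 8. Tgfb1 was highest in the blood of H7, at 118 UPM, and at 60.9 or less elsewhere. Apoe ran from 4.44 UPM in the lymph node to 499 in the joint, with the muscle of S1, at 3762, above all of them. None of these 4 genes was called in the state test (log2 differences of 0.27 ± 1.53, -0.90 ± 1.50, -0.76 ± 1.53 and 1.88 ± 1.16, each with an adjusted p of 1.00).

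Organs were compared within the same fit, for blood (3 mice), joint (2) and muscle (2), each against the mean of the other 2. The blood contrast called 10 of 5575 genes (0.179%), 4 higher and 6 lower. Higher in blood were the haemoglobin genes Hba-a1 at 4.17 ± 0.91, Hbb-bt at 4.26 ± 0.94 and Hbb-bs at 3.75 ± 0.89 and the light chain gene Iglc2 at 4.98 ± 1.23 (log2 ± SE, adjusted p of 0.0164, 0.0164, 0.0222 and 0.0386). Cd63, a tetraspanin of lysosomes, its pseudogene Cd63-ps, Cxcl2, Retnla, the fatty acid carrier Fabp4 and Gm8814 had log2 differences of -3.91 to -6.18. Haemoglobin and immunoglobulin transcripts are those of red cells and B cells. The blood contrast called 0 genes with a pseudocount of 1, without the filter on low genes, without a variance trend, with S100a8 plus S100a9 under 1%, and without H3, H7 or S1, and each of the 10 genes lost its call in 12 to 15 of 20 settings.

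The joint contrast called 56 genes (1.00%), 49 higher and 7 lower, with the median of all genes at 0.70. All 5 of the precursor genes tested were called, with a median of 5.10. Elane was higher by 6.33 ± 1.14 (adjusted p = 8.15e-05), Mpo by 5.82 ± 1.16 and the granule gene Ngp by 5.11 ± 1.04. Lgals7, Igfbp7, Fxyd2, Pclaf, Emp1, Cxcl2 and Prg4, which encodes the joint lubricant lubricin, were also among the 10 with the smallest p, at 4.24 to 5.61. With S100a8 plus S100a9 under 1% the joint was 11 barcodes of H3 alone and no mouse block could be fitted; the differences were then -1.78 for Elane and -3.09 for Mpo, and the joint contrast called 0 genes. It called 0 without H6, H7 or S6, 1 without H3 and 3 without S2. Igkc, Iglc2 and Trbc2, of B and T cells, were lower. The muscle genes Mylpf, Tnnc2, Myl1 and Tnnt3 were also called lower, but these calls rest on the muscle of S1 and do not describe the joint. The skeletal muscle list summed to 16707 UPM there, to 369 in the joint of H3 and to 90.0 and 46.6 in that of S1. It stood at 55.8 in the muscle of H6 and at 86.7 or less in blood. Of the 21 interferon-stimulated and 9 MHC class II genes none was called, and of 13 classical monocyte genes 2 were higher.

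The muscle contrast called 90 genes (1.61%), 18 higher and 72 lower, with the median of all genes at -0.66. Of 8 skeletal muscle genes 7 were higher, among them Tnnc2 at 5.47 ± 0.87, Myl1, Mylpf, Myh4 and Tnnt3, together with Pvalb, Atp2a1 and Tpm2 of the same fibres. The skeletal muscle list summed to 16707 UPM in the muscle of S1 and to 55.8 in that of H6, where Tnnc2, Myl1 and Tnnt3 were listed at 0. These calls thus rest on the sum of S1 and do not describe both muscle mice. Ccl12 was higher by 4.98 ± 0.92 and Retnla by 5.20 ± 1.14. Ccl12 stood at 1736 UPM in the muscle of S1 and was listed at 0 in that of H6, so its difference rests on S1 as well. Of 13 classical monocyte genes 4 were lower. They included Plac8 at -4.20 ± 0.69 and the haptoglobin gene Hp at -4.22 ± 0.87, and Ifitm6, an interferon-induced membrane protein, was lower by 4.70 as well, along with Hnrnpu, Hnrnpc, Smc4, Serp1, Ptges3 and Myh9. The direction of these last 6 turned in some settings, with highest values of 0.43 for Hnrnpu, 1.03 for Hnrnpc, 1.01 for Smc4, 1.17 for Serp1, 0.47 for Ptges3 and 0.074 for Myh9, and that of Retnla turned to -0.54. These organ calls changed with the settings. Without the mouse block the joint contrast called 3 genes, the muscle contrast 0 and the blood contrast 21, and without the libraries of blood H7, lymph node S7 and muscle S1 all 3 contrasts called 0.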

How the data were processed

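Seq-Well libraries of 30 mouse organ samples were analysed as one deposited table of 23013 gene rows and 8282 barcode columns. The authors aligned reads to GRCm38 with STAR, counted transcripts per barcode with the Drop-seq tools, filtered barcodes on reads, transcripts, genes and mitochondrial share, and smoothed them over 12 nearest neighbours. When joint, lung, muscle, skin and spleen were later analysed together, their methods removed cells with very many transcripts as likely duplicates. They do not state this step for the table used here. No doublet caller was run here, since smoothed profiles mix cells. The deposited values are therefore a signal of whole units per gene and not independent counts, so no count model and no counting interval was used. The p-values rest on the spread between mouse-and-organ sums, several of them organs of S1. In the main fit the prior degrees of freedom of the variances were infinite. Each gene thus took the variance of a trend over all genes and not its own spread between mice. Symbols from a RefSeq table (GRCm38.p6) covered 21404 rows.

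The members and gene lists were chosen with earlier results of these data known. Member columns were summed per library, and for the tests per mouse and organ where a library had 10 or more. Sums were scaled to UPM by unweighted log ratios averaged after trimming, which dropped 30% at either end by ratio and 5% by level (numpy 2.4.6). Genes were kept from a mean of 25 UPM up and fitted as log2(value + 10), which understates the change of low genes, with limma 3.58.1 in R 4.3.3 (moderated variances with a trend, mouse as a random block by duplicateCorrelation, two-sided p adjusted by Benjamini-Hochberg over all genes tested). The 7 genes of the rule were not tested. An adjusted p under 0.05 was a call. Each adjusted p in the text is from this fit. The fit was tested on simulated data. The planned test of state within blood needed 2 mice per state and was not made, since 1 healthy mouse had 10 or more such barcodes.

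Genes were named by rule: of the calls, up to 10 each way by p, or 3 where nothing was called; up to 4 of highest mean level per list; 5 per direction with the largest ratio where a state had 1 mouse, among genes with 50 or more units and with 0.5 units added to each side; 8 per organ with the largest ratio over the other barcodes, at 200 UPM or more; and Il1b, Tnf, Tgfb1 and Apoe. Not every gene so chosen is reported here. Genes with no overlap between the states, and single list genes beside them, were picked after their values were seen. A value of 0 is reported as listed at 0.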

Additional observations from a re-analysis of the deposited data

Results flagged for a closer look

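The share of monocyte-marker barcodes was uneven among healthy mice. In healthy blood the mouse H7 had 2.03% and the other 3 mice 0, and in healthy lymph node the mouse H4 had 0.322% and the other 3 mice 0, so that 1 mouse of 4 differed from the rest in each. The gap between the highest mouse and the next is the whole range wherever 3 mice are at 0, so this carries no test, and in lymph node it rests on 1 barcode.

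In 4 of 6 gene lists the ratio of CIA over healthy had opposite signs in joint and muscle, with 1 mouse per state, and the difference between the organs was not tested. The log2 ratio of MHC class II genes was -2.11 in joint and 0.56 in muscle, that of cytokines and chemokines -0.78 and 2.65, that of myeloid precursor genes 0.34 and -4.88, and that of tissue macrophage genes -0.074 and 3.54. With each distinct profile counted once, the signs differed for MHC class II genes alone among these 6 lists (-0.64 and 0.68): the joint ratios became 0.68 for tissue macrophage, -0.55 for precursor and 0.15 for cytokine genes, and the muscle ratios were 3.74, -5.01 and 2.895. The chosen barcodes of the muscle of S1 also held 16707 UPM of skeletal muscle genes, whose part in these values was not tested.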

How the results depend on the processing

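No paired analysis was possible because in no organ did the healthy and CIA mice with 10 or more chosen barcodes share a number, and a fit with organ, state and mouse number left no residual degrees of freedom. The test of state called 0 genes, and 1, Ifi27l2a, with median-of-ratios scaling (adjusted p = 0.012), total-only scaling (0.00058), each distinct profile once (0.030) and no mouse block (0.0084); it called 0 without any 1 mouse, and the log2 difference of Ifi27l2a stayed between 3.12 and 4.49, with adjusted p from 0.00058 to 1.00. The organ contrasts (blood 10, joint 56 and muscle 90 calls) gave 0, 5 and 0 with a pseudocount of 1, 0, 0 and 0 without the filter on low genes, 0, 10 and 0 without a variance trend, 21, 12 and 0 with 5 or more barcodes per library, 21, 3 and 0 without the mouse block, and 0, 0 and 12 in libraries ending in 2CIA. They gave 0, 0 and 0 with S100a8 plus S100a9 under 1%, with 20 or more barcodes per library, and, in 2 settings chosen after seeing the data, with F13a1 above 0 in each barcode and without the libraries of blood H7, lymph node S7 and muscle S1. Total-only scaling gave 154 calls in muscle. Leaving out 1 mouse at a time gave 0 to 27, 0 to 51 and 0 to 82 calls and 0 to 0 for state, with 0 in muscle without any one of H3, H7, S1, S2 or S6. In several of these fits the mouse correlation could not be estimated and no block was used, fewer sums entered, or both; the cause of the lost calls was not tested. A marker limit of 0.2% left no healthy sum, and the fit was not run.

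With S100a8 plus S100a9 under 1% the joint was the mouse H3 alone, and the joint difference of Elane was -1.78 and that of Mpo -3.09. With 20 or more barcodes per library, and likewise without the 3 libraries named above, the muscle difference of Retnla was -0.54, and those of Hnrnpu 0.43, Smc4 1.01, Hnrnpc 0.87, Serp1 1.17 and Myh9 0.074. Leaving out 1 mouse at a time, Smc4 ranged from -5.50 (without H6) to 0.33 (without S1), Hnrnpc from -5.88 to 1.03, Serp1 from -5.37 to 0.72 and Ptges3 from -5.75 to 0.47, with the same mice at the ends. For state, Il1b was at -0.94 with 20 or more barcodes and without the 3 libraries, -0.80 in libraries ending in 2CIA, -0.41 with F13a1 above 0, -0.48 without H7 and -0.15 without S2, with 1.09 without S1 as the highest value. Tnf was at 0.15, 0.15, 0.40, 0.92 and, without H7, 0.98, and Tgfb1 at 0.80 in libraries ending in 2CIA, 1.49 with F13a1 above 0, 1.10 without H7 and 0.13 without S6; without S1, Tnf was at -2.95 and Tgfb1 at -2.80.

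The share of chosen barcodes, 7.30%, was 17.1% at a limit of 0.05% (22 libraries with 10 or more), 3.76% at 0.2% (6 libraries), 3.77% with S100a8 plus S100a9 under 1%, 8.78% without that limit, 6.58%, 5.80%, 6.18% and 5.05% with F13a1, Ms4a6c, Ccr2 or Ly6c2 left out of the sum, and 6.62% over distinct profiles. With each distinct profile once, the joint log2 ratios were 2.78 for interferon-stimulated, -0.64 for MHC class II, 1.11 for classical monocyte, 0.68 for tissue macrophage, -0.55 for precursor and 0.15 for cytokine genes, and the muscle ratios 1.35 for interferon-stimulated, 0.68 for MHC class II, 1.45 for classical monocyte, 3.74 for tissue macrophage and 2.895 for cytokine genes. With S100a8 plus S100a9 under 1% the muscle ratio of classical monocyte genes was 0.79. Depth is not known from smoothed units, so no counting error is given.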
